A study of Mus musculus with 6 samples.

Results

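The genes described here are 34 genes used to recognise blood and lymphatic endothelium, the single cell layer that lines every vessel of the lung. They were taken by gene symbol from tables of 23183 genes, and all 34 were listed. RNA of lung tissue from C57BL/6 mice was sequenced in 6 libraries. The 3 saline libraries came from mice given saline into the trachea and labelled wild type in title and genotype field. The 3 LPS libraries came from mice given lipopolysaccharide (LPS), a bacterial cell wall component, by the same route. Their titles say wild type, but the genotype field says LCN2-/- for LPS 1 and LPS 2 and LCN4-/- for LPS 3. The labels used here give no age, sex, dose or time after instillation. The RNA of Lcn2 itself was high in all LPS libraries (13.60, 13.29 and 13.82, against 8.20, 11.28 and 10.11 in saline), which goes against a loss of Lcn2 RNA in LPS 1 and LPS 2. If the genotype field were right, genotype and treatment could not be told apart in any result given here, so the groups are called saline libraries and LPS libraries.

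Endothelial identity is held by transcription factors of the ETS, SOXF, GATA and SCL families, which switch on junction proteins, receptors and vessel-type genes. The lung has a dense capillary bed of general capillary cells and large, gas-exchanging aerocytes, with arteries, veins and lymphatics that each carry their own markers. In inflammation the endothelium regulates leak of plasma and entry of leukocytes. Several of the 34 genes are also active outside endothelium: Pecam1 and Fli1 in leukocytes and platelets, Tal1, Lyl1 and Gata2 in blood cell precursors, Gata2 in mast cells, Lyve1 and Stab1 in macrophages, S1pr1 in lymphocytes, and Foxf1 and Cd34 in lung mesenchyme.

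The deposited values are log2(expression value + 1), and every difference is LPS minus saline on that log2 scale. Of the 34 genes, 33 passed the filter of a value of at least 1 before the log in at least 3 libraries, and Prox1 did not. The table of LPS 3 ends within the gene names starting with Slc, so Sox7, Sox17, Sox18, Stab1, Tal1 and Tmem100 have 2 LPS values and the other 28 genes have 3. Of the 33 genes tested, 15 (45.5%) were called at an adjusted p below 0.05 (limma with Benjamini-Hochberg adjustment over 13116 genes), against 50.1% of all genes tested. The 10 that fell make up 30.3% of those tested, against 24.3% of all genes, and the 5 that rose make up 15.2%, against 25.7%. Called differences of at least 2-fold were found for 8 of the 33 genes (24.2%), 6 lower and 2 higher, against 18.1% of all genes. The share called was near the background, and the median difference was -0.25, against 0.02 over all genes. In these bulk samples fewer endothelial cells and less RNA per cell cannot be told apart.

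The genes that rose were S1pr1, Lyve1, Robo4, Rasip1 and Cd34. Those that fell were Gja4, Gja5, Tmem100, Plvap, Arhgef15, Palmd, Bmx, Erg, Sox18 and Stab1. On the deposited values Pecam1, Cdh5, Esam, Eng, Egfl7 and Cd93, all general endothelial markers, did not pass. With quantile normalization Pecam1, Cdh5, Eng, Gpihbp1 and Car4 were called lower. The split of directions rests in part on scaling. It was 5 higher and 10 lower as deposited. With quantile normalization it was 3 and 14 (9.09% and 42.4%, against 20.5% and 21.2% of all genes), and the median difference of the members was -0.60 where that of all genes was 0.01. With all 6 libraries brought to an equal sum before the log it was 2 and 27 (6.06% and 81.8%, against 6.08% and 63.6% of all genes). That last step moved the median of all genes from 0.02 to -0.68, a shift of -0.70. Differences with equal sums are given below as fitted, with that shift included, unless marked as less the shift. Equal sums scale each library by 1 factor. A value less the shift therefore lies near the deposited one by construction and is no separate support.

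**Figure D1:**
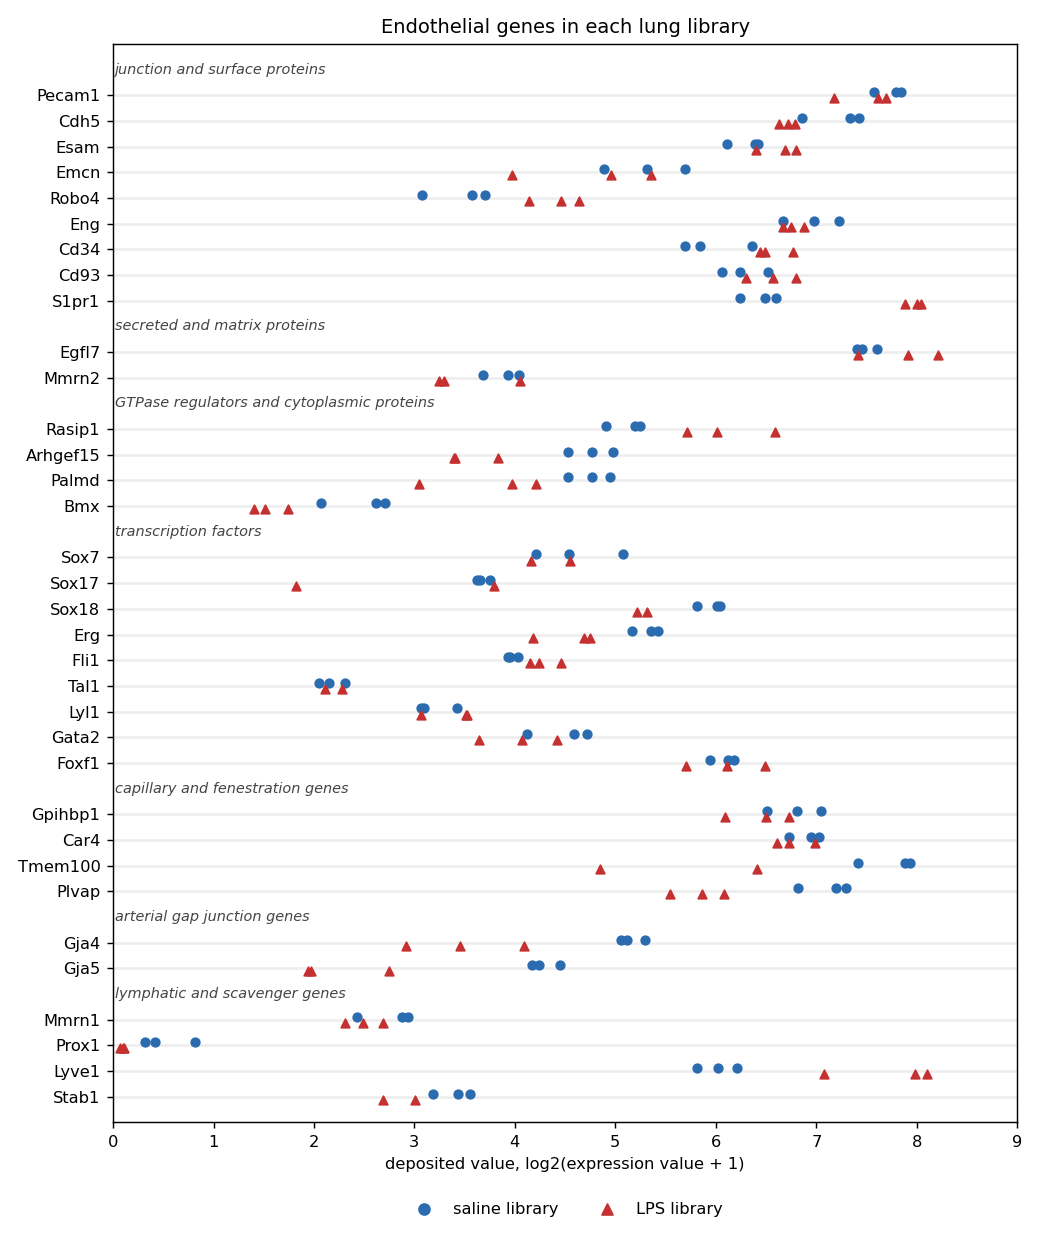
Deposited value, log2(expression value + 1), of the 34 endothelial genes in each library, ordered by role; blue circles are the 3 saline libraries and red triangles the LPS libraries (2 for Sox7, Sox17, Sox18, Stab1, Tal1 and Tmem100). S1pr1 and Lyve1 lie higher in every LPS library than in any saline library, Gja4, Gja5, Tmem100 and Plvap lie lower, and Prox1 is below 1 in all 6.

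Among junction and surface proteins, 3 of 9 rose and 0 fell. Of all genes tested 25.7% rose and 24.3% fell, the background for every count below on the deposited values. No count was tested against it. With quantile normalization Pecam1, Cdh5 and Eng were called lower, and Cd34 was no longer called (0.07). S1pr1 encodes the receptor for sphingosine-1-phosphate that tightens endothelial junctions and guides lymphocyte exit (chromosome 3, 115710433 to 115715072, minus strand, mm10). Its values were 6.60, 6.49 and 6.24 in saline and 8.04, 8.0 and 7.88 in LPS. All 3 LPS libraries lie above all saline libraries, with little spread in either group. The means were 6.44 ± 0.18 (SD, n = 3) and 7.97 ± 0.08 (SD, n = 3), a difference of 1.53 (SE 0.17; limma adjusted p = 0.000221) or 2.89-fold. It was 1.43 with equal sums less the shift. Lymphocytes also express S1pr1: of 14 T and B cell markers tested, 0 rose and 8 fell, and their summed value before the log was 303 to 439 in saline and 144 to 161 in LPS (Cd79b -1.81, Cd79a -2.32). Their part in the rise of S1pr1 was not tested.

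Robo4, an endothelial guidance receptor that stabilises vessels (chromosome 9, 37401897 to 37415115, plus strand), had values of 3.70, 3.08 and 3.57 in saline and 4.64, 4.46 and 4.14 in LPS. The groups did not overlap. The difference was 0.96 (SE 0.20; limma adjusted p = 0.00401), or 0.91 with equal sums less the shift. Without subtraction of the shift, equal sums gave 0.21 and the call ended.

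Cd34, a sialomucin of capillary endothelium, blood progenitors and mesenchyme (chromosome 1, 194938819 to 194961279), had values of 5.84, 6.36 and 5.69 in saline and 6.49, 6.44 and 6.77 in LPS. The groups are separated by a gap far smaller than the saline range. The difference of 0.60 (SE 0.20; limma adjusted p = 0.0329) was 0.07 with quantile normalization and turned to -0.19 with equal sums. The call also ended without saline 1 (0.54), without saline 3 (0.47), without LPS 1 (0.64), without LPS 2 (0.67) or without LPS 3 (0.50). Of 14 fibroblast and mesenchyme markers tested, 0 rose and 10 fell, with summed values over 12 genes of 1920 to 2880 in saline and 702 to 810 in LPS (Inmt -2.25, Mfap4 -1.08, and Dcn -0.03, not called). Their part in the values of Cd34 was not tested.

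The other 6 surface genes did not pass. Pecam1, the platelet endothelial adhesion molecule, had values of 7.79, 7.84 and 7.57 in saline and 7.18, 7.61 and 7.69 in LPS. The groups overlap, and the difference was -0.24 (SE 0.19; limma adjusted p = 0.317). It was called lower with quantile normalization (-0.94, limma adjusted p = 0.00322) and with equal sums (-1.04). Cdh5, the VE-cadherin of adherens junctions, had values of 7.42, 6.86 and 7.34 in saline and 6.79, 6.63 and 6.72 in LPS. All LPS values are below the saline values, and the difference of -0.50 (SE 0.19) had a limma adjusted p = 0.0519. It passed without saline 2 (-0.67, limma adjusted p = 0.00482), with quantile normalization (-1.11), with equal sums (-1.29), with no variance trend (-0.50) and with saline 1 and 3 against LPS 1 and 2 (-0.67). Esam, an adhesion molecule of tight junctions, had a difference of 0.32, Eng, a co-receptor for BMP9, -0.19, and Cd93, a C-type lectin-like receptor, 0.28. Eng was called lower with quantile normalization (-0.82, limma adjusted p = 0.0189) and with equal sums (-0.99). The values for Esam and Cd93 turned below 0 with both, and were called lower with equal sums. Less the shift they were 0.23 and 0.18. Emcn, the anti-adhesive sialomucin endomucin of capillaries and veins, spread widely, with values of 5.31, 5.69 and 4.89 in saline and 3.97, 5.35 and 4.96 in LPS. Its difference was -0.54 (SE 0.33; limma adjusted p = 0.199), and -0.15 without LPS 1.

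Of the secreted and matrix proteins, neither was called. Egfl7, a factor laid down beneath growing vessels, had values of 7.40, 7.60 and 7.45 in saline and 7.41, 8.21 and 7.91 in LPS (difference 0.36, SE 0.22; limma adjusted p = 0.196), and turned below 0 with quantile normalization (-0.32) and with equal sums (-0.44). Its exons overlap those of Agpat2 on the other strand. The counting was not stated to use strand, so reads of the pair may not be separated. The same holds for Gja5 with Gpr89, Eng with Fpgs, Stab1 with Nt5dc2 and Lyl1 with Nfix. Mmrn2, a matrix ligand of CD93, differed by -0.36 (SE 0.22; limma adjusted p = 0.209), and was called lower without LPS 2 (-0.62).

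The 4 genes for GTPase regulators and cytoplasmic proteins were all called, 1 higher and 3 lower, where 50.1% of all genes were called. Rasip1, which acts downstream of RAS and RAP1 to open vessel lumens and hold junctions (chromosome 7, 45627488 to 45639093, plus strand), had values of 5.24, 4.91 and 5.20 in saline and 6.59, 6.01 and 5.71 in LPS. Every LPS library was above every saline library. The difference was 0.99 (SE 0.23; limma adjusted p = 0.00620), or 0.90 with equal sums less the shift. The call ended with quantile normalization (0.57) and with equal sums before subtraction of the shift (0.20).

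Arhgef15, a guanine nucleotide exchange factor of endothelium (chromosome 11, 68943155 to 68957480), went the other way, with values of 4.98, 4.53 and 4.77 in saline and 3.40, 3.83 and 3.39 in LPS. The groups are well apart. The difference was -1.22 (SE 0.18; limma adjusted p = 0.000793), a fall of 2.33-fold. Palmd, which encodes the membrane-associated protein palmdelphin (chromosome 3, 116918258 to 116968987), had values of 4.77, 4.95 and 4.53 in saline and 3.05, 4.21 and 3.97 in LPS. LPS 1 was the lowest, and the difference of -1.01 (SE 0.27; limma adjusted p = 0.0139) shrank to -0.66 without it, while without saline 2 the call ended (-0.91). Bmx, a TEC family kinase of arterial endothelium and myeloid cells (X chromosome, 164192842 to 164258193), had low values of 2.71, 2.62 and 2.07 in saline and 1.40, 1.51 and 1.74 in LPS. The groups did not overlap, and the difference was -0.92 (SE 0.19; limma adjusted p = 0.00412).

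Of the 9 transcription factor genes, 2 fell and 0 rose, against 24.3% and 25.7% of all genes. Erg and Fli1 encode ETS factors of the same subfamily that bind the same core sequence. Erg, largely restricted to endothelium in adult tissue (chromosome 16, 95359169 to 95586593, minus strand), had values of 5.42, 5.35 and 5.17 in saline and 4.18, 4.69 and 4.75 in LPS. Every LPS library was below every saline library. The difference was -0.78 (SE 0.18; limma adjusted p = 0.00689), or -0.86 with equal sums less the shift. Fli1, also active in leukocytes and megakaryocytes (chromosome 9, 32422204 to 32542861), had values of 3.95, 3.93 and 4.03 in saline and 4.46, 4.24 and 4.15 in LPS. Its LPS values all lie above the saline values, but the difference of 0.31 (SE 0.14; limma adjusted p = 0.0911) did not pass and turned to -0.44, called lower, with equal sums. Less the shift it was 0.25.

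The log2 ratio of Erg to Fli1 within a library, each value plus 1, was 1.47, 1.42 and 1.14 in saline and -0.28, 0.45 and 0.59 in LPS. This ratio does not depend on how a library was scaled, apart from the 1 added before the log. It fell in mean from 1.34 ± 0.18 (SD, n = 3) to 0.25 ± 0.47 (SD, n = 3), with no overlap. The two-sided exact permutation p = 0.1 is the smallest that 3 against 3 libraries allow, and p = 0.24 after adjustment over the 12 ratios compared. Platelets and neutrophils also express Fli1. Of 11 platelet and megakaryocyte markers tested, 4 rose, 0 fell and 7 did not pass (Pf4 1.61, called, Ppbp 0.05 and Tubb1 0.10, not called). The summed value over 10 genes, none at 0 in every library, was 100 to 137 in saline and 253 to 303 in LPS. Pf4 made up 39.5% to 68.7% of that sum, and the other 9 genes summed to 54.1 to 82.9 in saline and 83.7 to 97.6 in LPS. Of 13 neutrophil markers tested, 11 rose and 0 fell, with sums of 733 to 2100 and 9870 to 25600 over 14 genes (S100a8 4.18, S100a9 4.12, Retnlg 3.61). Their part in the ratio was not tested.

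The 3 SOXF genes, which act together in artery and lymphatic formation, have no LPS 3 value. Sox18 (chromosome 2, 181669836 to 181671640) had values of 6.04, 5.81 and 6.01 in saline and 5.22 and 5.31 in LPS. Both LPS libraries lie below saline, and the difference was -0.69 (SE 0.17; limma adjusted p = 0.0107). The call ended without LPS 1 (-0.65, limma adjusted p = 0.0701), where 1 LPS value remained. Sox17, which sets arterial fate, was split: 3.62, 3.65 and 3.75 in saline, 1.82 in LPS 1 and 3.79 in LPS 2. Its difference of -0.87 (SE 0.46; limma adjusted p = 0.147) was 0.11 without LPS 1 and -1.85 without LPS 2, so no direction can be given. Sox7 was 5.08, 4.21 and 4.54 in saline and 4.55 and 4.16 in LPS. The groups overlap, and the difference was -0.25 (SE 0.26; limma adjusted p = 0.442).

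The remaining factors did not pass. Gata2, which maintains endothelial and mast cell genes, had values of 4.72, 4.12 and 4.59 in saline and 3.64, 4.42 and 4.07 in LPS (difference -0.44; limma adjusted p = 0.137). The mast cell list was mostly too low to test, with 1 of 10 genes tested and sums of 28.8 to 49.2 in saline and 46.8 to 60.8 in LPS over 8 genes. Hdc, which neutrophils also express, made up most of that sum (0.67, called), and the other 7 genes summed to 2.94 to 7.68 in saline and 1.10 to 1.49 in LPS, while Tpsb2 and Tpsab1 were listed at 0 in every LPS library that has a value. Tal1 and Lyl1, related bHLH factors of the SCL complex, had differences of 0.03 and 0.17, and both turned below 0 and were called lower with equal sums (0.08 and 0.14 less the shift). Their mean values were low, 2.17 and 3.19 in saline. Of 8 erythroid markers tested, where Tal1 is also active, 5 rose and 0 fell, with sums of 3700 to 6600 in saline and 8570 to 14700 in LPS over 9 genes (Hbb-b1 1.20, Hba-a1 1.26, Hbb-b2 1.22). The part of either cell type was not tested. Foxf1, a forkhead factor of lung capillaries and mesenchyme, had values of 6.18, 5.94 and 6.12 in saline and 5.70, 6.49 and 6.11 in LPS, a difference of 0.02 (limma adjusted p = 0.943) whose sign changed with quantile normalization (-0.49) and with equal sums (-0.77, called).

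**Figure D2:**
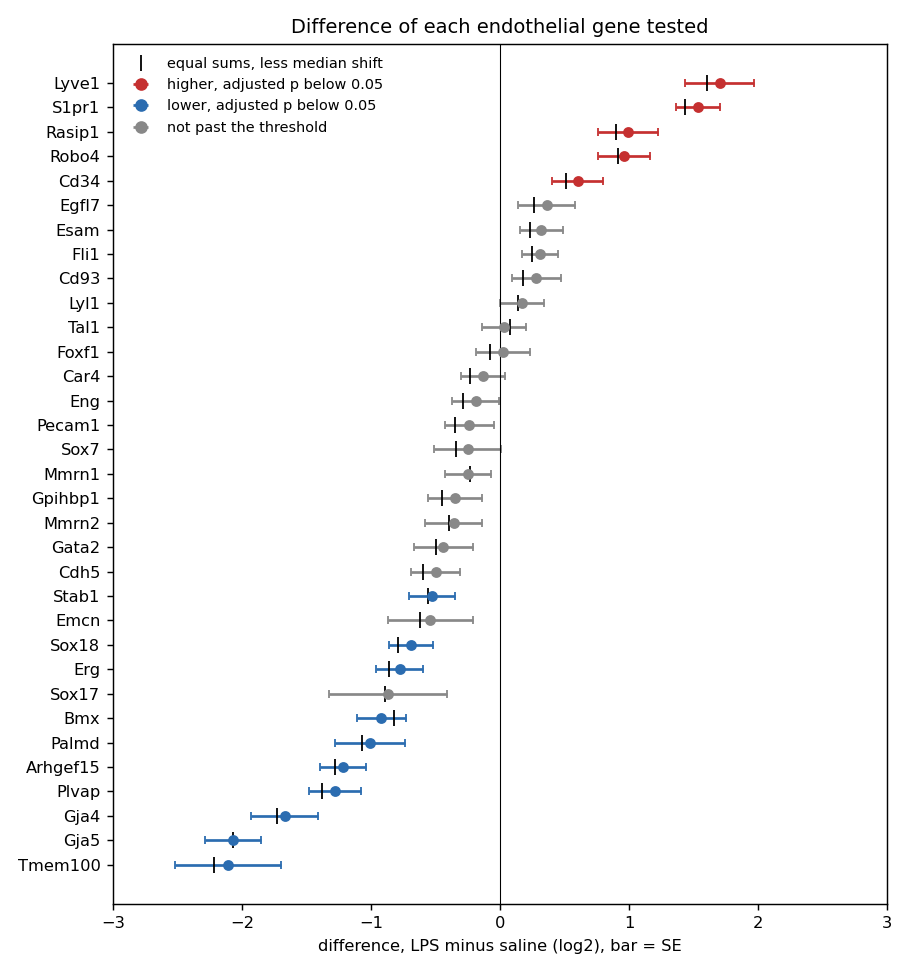
Difference between LPS and saline (log2, bars are SE) for the 33 genes tested, from Tmem100 (-2.11) to Lyve1 (1.70); red marks the 5 called higher, blue the 10 called lower and grey the rest, and the black ticks show the difference with equal sums less the shift of the median of all genes. The ticks lie near the points for all 33. Equal sums scale all values of a library by the same factor, so this closeness holds by construction. It is no separate support for the differences or their order.

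Among capillary genes, Plvap and Tmem100 fell, and Gpihbp1 and Car4 did not pass on the deposited values. Plvap encodes the diaphragm protein of fenestrae and caveolae, present in general capillary cells and veins (chromosome 8, 71497765 to 71511752). Its values were 7.20, 6.82 and 7.30 in saline and 5.54, 6.08 and 5.86 in LPS. All LPS libraries lie below saline, and the difference was -1.28 (SE 0.20; limma adjusted p = 0.00102), a fall of 2.43-fold. Relative to Cdh5 in the same library, the log2 ratio was -0.22, -0.04 and -0.04 in saline and -1.24, -0.55 and -0.86 in LPS (two-sided exact permutation p = 0.1; adjusted p = 0.24).

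Tmem100, a membrane protein induced by BMP9 and ALK1 signalling in arteries and capillaries (chromosome 11, 90030348 to 90036508), had values of 7.93, 7.88 and 7.41 in saline.  The LPS values were 4.85 in LPS 1 and 6.41 in LPS 2. Both are below saline but far from each other, and the difference was -2.11 (SE 0.41; limma adjusted p = 0.00359). It was -1.33 without LPS 1 and -2.89 without LPS 2, where 1 LPS value remained in each case.

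Gpihbp1, which carries lipoprotein lipase across capillaries, had values of 6.81, 7.05 and 6.51 in saline and 6.09, 6.73 and 6.50 in LPS (difference -0.35, SE 0.21; limma adjusted p = 0.202). Car4, a membrane carbonic anhydrase that marks aerocytes in lung, had values of 6.95, 7.03 and 6.73 in saline and 6.99, 6.73 and 6.61 in LPS (difference -0.13, SE 0.17; limma adjusted p = 0.559). The groups overlap for both genes. Both were called lower with quantile normalization, Gpihbp1 at -0.92 (limma adjusted p = 0.00573) and Car4 at -0.75 (limma adjusted p = 0.00582), and with equal sums (-1.14 and -0.93). Their log2 ratio was 0.15, -0.02 and 0.22 in saline and 0.90, -0.01 and 0.10 in LPS, where LPS 1 stands apart and the other LPS libraries lie within the saline range.

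The arterial gap junction genes both fell. Gja5, a connexin gene of arterial endothelium and atrial muscle (chromosome 3, 96904693 to 97077416, plus strand), had values of 4.24, 4.45 and 4.17 in saline and 1.94, 2.75 and 1.97 in LPS. The gap between the groups is wider than the spread within either. The means were 4.29 ± 0.14 (SD, n = 3) and 2.22 ± 0.46 (SD, n = 3), a difference of -2.07 (SE 0.22; limma adjusted p = 0.000193) and a fall of 4.19-fold. Gja4, a connexin gene of arteries and lymphatic valves (chromosome 4, 127311421 to 127314039, minus strand), had values of 5.12, 5.29 and 5.06 in saline and 3.45, 4.09 and 2.92 in LPS. Again no LPS library reached saline, and the difference was -1.67 (SE 0.26; limma adjusted p = 0.00101), a fall of 3.18-fold. The log2 ratio of Gja5 to Gja4 was close to constant in saline (-0.88, -0.84 and -0.89) and lower in LPS (-1.51, -1.34 and -0.95; two-sided exact permutation p = 0.1; adjusted p = 0.24). With 5 in place of 1 added before the log the difference shrank from -0.40 to -0.06 (two-sided exact permutation p = 0.8), so the separation rests on the value added.

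Heart tissue can carry Gja5. All 10 cardiac muscle and endocardial markers tested fell, with a summed value over 7 genes of 196 to 1650 in saline and 32.2 to 123 in LPS, and none was at 0. Myl7, Tnnt2 and Actc1 had differences of -2.70, -2.77 and -2.30. In saline the cardiac gene Myl7 was 9.11, 7.98 and 6.25, while Gja5 was 4.24, 4.45 and 4.17 in the same libraries. The part of cardiac tissue in the fall of Gja5 was not tested. Of 8 adipocyte markers tested, from fat that a dissected lung can carry, 0 rose and 7 fell, with summed values of 133 to 333 in saline and 89.0 to 129 in LPS (Fabp4 -0.40, not called, Lipe -0.73, Cfd -4.65). Of 14 epithelial markers tested, 3 rose and 3 fell, with sums of 81800 to 119000 and 165000 to 181000. Scgb1a1 (1.08, not called) made up most of that sum, and without it the sums were 20100 to 21100 and 15000 to 16500 (Sftpc -0.39 and Ager 0.05, not called).

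Lymphatic and scavenger genes went apart. Lyve1, the hyaluronan receptor of lymphatic endothelium, also present on interstitial macrophages (chromosome 7, 110850607 to 110863239, minus strand), had values of 6.02, 6.21 and 5.81 in saline and 8.10, 7.08 and 7.98 in LPS. All LPS libraries are higher, LPS 2 least. The means were 6.01 ± 0.20 (SD, n = 3) and 7.72 ± 0.56 (SD, n = 3), a difference of 1.70 (SE 0.27; limma adjusted p = 0.00106) or 3.26-fold, and 1.60 with equal sums less the shift. Stab1, a scavenger receptor of sinusoidal endothelium and macrophages (chromosome 14, 31139013 to 31168641), had values of 3.55, 3.18 and 3.43 in saline and 3.01 and 2.69 in LPS. Both LPS values are below saline. Its difference of -0.53 (SE 0.18; limma adjusted p = 0.0405) was no longer called without saline 1 (-0.45), without saline 3 (-0.51), without LPS 2 (-0.37) or with quantile normalization (-0.45).

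The other markers of lymphatic vessels did not rise with Lyve1. Prox1, the master regulator of lymphatic fate, was below the filter, with values of 0.82, 0.42 and 0.32 in saline and 0.07, 0.11 and 0.10 in LPS. Without the filter its difference was -0.42 (limma adjusted p = 0.0576). Mmrn1, a matrix glycoprotein of lymphatic endothelium and platelets, had values of 2.88, 2.94 and 2.43 in saline and 2.31, 2.49 and 2.69 in LPS (difference -0.25; limma adjusted p = 0.256). The log2 ratio of Lyve1 to Prox1 was 5.20, 5.80 and 5.49 in saline and 8.03, 6.96 and 7.87 in LPS, with no overlap (two-sided exact permutation p = 0.1; adjusted p = 0.24). Because Prox1 is so low, the size of that difference, 2.13, depends on the value added before the log, and was 3.31 with 0.1 in place of 1. The ratio of Stab1 to Lyve1 was -2.47, -3.03 and -2.38 in saline and -5.09 and -4.38 in LPS (two-sided exact permutation p = 0.2, the smallest that 3 against 2 allow). Of 16 monocyte and macrophage markers tested, 9 rose and 2 fell, with summed values of 3780 to 5460 in saline and 2890 to 3280 in LPS and none at 0 in every library. Lyz2, which fell (-1.0), made up 58.1% to 93.4% of that sum, and the other 15 genes summed to 264 to 518 in saline and 893 to 1300 in LPS (Cd14 3.59, called, and C1qb 0.32, not called). Their part in the rise of Lyve1 was not tested.

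**Figure D3:**
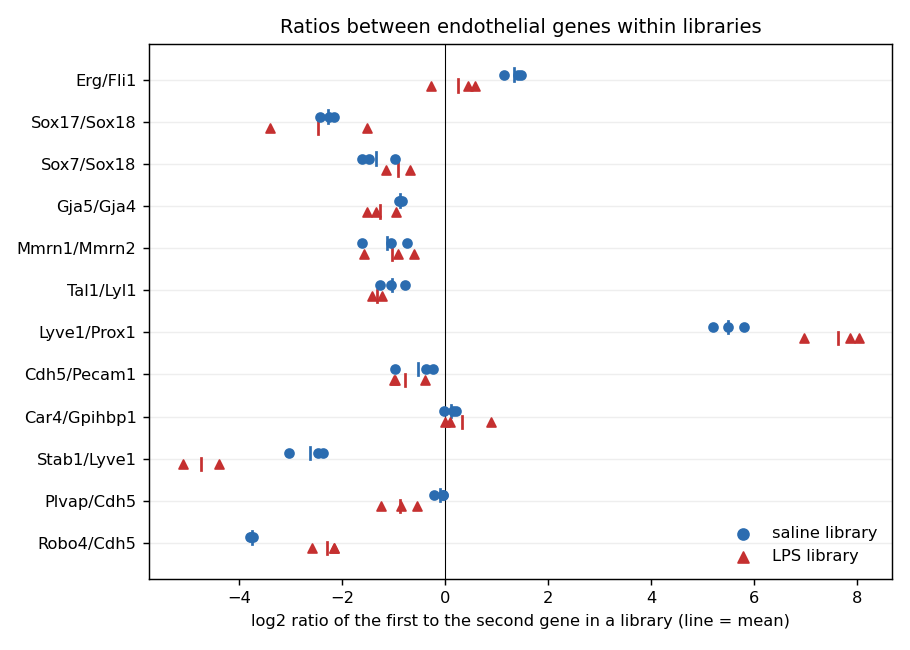
Log2 ratio of the first to the second gene in each library for 12 pairs of endothelial genes; blue circles are saline libraries, red triangles LPS libraries and short lines the means. The groups do not overlap for Erg/Fli1, Gja5/Gja4, Lyve1/Prox1, Stab1/Lyve1, Plvap/Cdh5 and Robo4/Cdh5.

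Set against Cdh5, Robo4 was nearly constant in saline and higher in LPS. The log2 ratio was -3.72, -3.78 and -3.77 in saline and -2.15, -2.16 and -2.58 in LPS, a difference of 1.46 (two-sided exact permutation p = 0.1; adjusted p = 0.24). The ratio of Cdh5 to Pecam1 overlapped between groups, with means of -0.53 ± 0.40 (SD, n = 3) in saline and -0.78 ± 0.34 (SD, n = 3) in LPS (two-sided exact permutation p = 0.3; adjusted p = 0.514). The ratios Sox17 to Sox18 (-0.18), Sox7 to Sox18 (0.44), Mmrn1 to Mmrn2 (0.10), Tal1 to Lyl1 (-0.29) and Car4 to Gpihbp1 (0.22) had differences smaller than the range within LPS or saline, and their groups overlapped.

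The LPS libraries were uneven for these genes. Over the 27 genes tested that have 6 values, the mean was 5.50, 5.40 and 5.35 in saline and 5.10, 5.40 and 5.21 in LPS. LPS 1 was the lowest of the LPS libraries for 15 of the 27 genes, LPS 2 for 3 and LPS 3 for 9, whereas over all 10295 genes tested with 6 values the shares were 35.9%, 32.9% and 31.1%. Sox17, Emcn, Tmem100, Lyve1, Gja4 and Palmd were the 6 genes with an LPS range of at least 1, and LPS 1 was lowest for Sox17, Emcn, Tmem100 and Palmd. The mean over 86 other endothelial genes had the same order, with 4.16, 4.45 and 4.35 in LPS, against 4.97, 4.72 and 4.84 in saline.

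Promoters of 17 of the 34 genes were matched by symbol in RefSeq (GRCm38.p6, which is mm10), each from 250 bases before to 50 after a transcription start. The 5 shown belong to called genes: the arterial pair, which fell, Robo4 and Rasip1, which rose, and the ETS factor gene Erg. Capitals mark matches to CAGGAA, an ETS core, or to AACAAT, a SOX core, on either strand. Gja5 is chr3:97032152-97032451, plus strand; Gja4 is chr4:127313990-127314289, minus strand; Erg is chr16:95459299-95459598, minus strand, 1 of 3 starts; Robo4 is chr9:37401722-37402021, plus strand; Rasip1 is chr7:45627287-45627586, plus strand. Each is written along the gene.
Gja5: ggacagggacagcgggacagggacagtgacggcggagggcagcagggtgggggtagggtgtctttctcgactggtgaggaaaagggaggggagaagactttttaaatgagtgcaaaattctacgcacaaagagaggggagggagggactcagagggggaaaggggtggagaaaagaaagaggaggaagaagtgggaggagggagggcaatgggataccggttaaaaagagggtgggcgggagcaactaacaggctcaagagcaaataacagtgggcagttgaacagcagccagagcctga
Gja4: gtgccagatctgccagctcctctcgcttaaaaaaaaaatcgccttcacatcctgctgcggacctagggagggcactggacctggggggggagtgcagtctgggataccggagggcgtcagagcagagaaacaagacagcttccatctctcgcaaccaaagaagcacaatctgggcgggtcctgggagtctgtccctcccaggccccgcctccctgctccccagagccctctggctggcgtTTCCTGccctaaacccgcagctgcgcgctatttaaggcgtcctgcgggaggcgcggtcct
Erg: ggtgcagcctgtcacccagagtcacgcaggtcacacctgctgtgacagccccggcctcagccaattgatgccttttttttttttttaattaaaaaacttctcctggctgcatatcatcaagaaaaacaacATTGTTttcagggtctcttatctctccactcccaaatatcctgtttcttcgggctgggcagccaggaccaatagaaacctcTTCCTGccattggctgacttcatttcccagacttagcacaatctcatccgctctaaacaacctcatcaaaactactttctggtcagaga
Robo4: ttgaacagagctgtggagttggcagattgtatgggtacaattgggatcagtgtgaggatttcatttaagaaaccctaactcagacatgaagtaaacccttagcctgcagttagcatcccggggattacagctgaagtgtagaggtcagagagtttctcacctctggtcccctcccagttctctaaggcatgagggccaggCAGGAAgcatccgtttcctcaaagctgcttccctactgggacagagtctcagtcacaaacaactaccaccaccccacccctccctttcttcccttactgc
Rasip1: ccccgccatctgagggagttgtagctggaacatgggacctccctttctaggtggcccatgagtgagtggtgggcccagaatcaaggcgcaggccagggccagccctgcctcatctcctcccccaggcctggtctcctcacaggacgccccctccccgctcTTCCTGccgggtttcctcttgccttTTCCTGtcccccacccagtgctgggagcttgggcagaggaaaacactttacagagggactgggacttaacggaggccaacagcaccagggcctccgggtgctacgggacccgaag

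Both directions of change are found among promoters with an ETS core in this window. Gja4, which fell, has 1 match starting at -10 from the transcription start, and Gja5, which also fell, has none. Robo4 and Rasip1, which rose, have 1 match at -50 and 2 matches at -90 and -65. The Erg promoter shown, unlike those at the other 2 Erg starts, has matches to all 4 cores searched, ETS at -39, SOX at -120, a GATA core at -103 and an E-box, the element of SCL factors, at -217, none of which overlap. The letters AGATAA were searched for the factor family of Gata2. The letters CAGNTG were searched for the E-box, also on either strand. Over the 24 promoters of the 17 genes, 13 hold the ETS core, 3 the SOX core, 2 the GATA core and 13 the E-box. Of the 20754 RefSeq promoters of the same length whose genes are listed in the expression tables, 28.5%, 9.03%, 9.56% and 48.9% hold them. A match describes letters only, and several of the 24 promoters are alternative starts of 1 gene.

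Other endothelial genes were counted in the same fit, from lists set by vessel type or function. Of 101 tested, 55 fell, 13 rose and 33 did not pass (67.3% called), and the median difference was -0.67. With equal sums 5 were called higher and 79 lower, where 6.08% and 63.6% of all genes were. With quantile normalization 12 were called higher and 65 lower, where 20.5% and 21.2% of all genes were. Of 35 pan-endothelial genes, 21 fell and 4 rose. Named by the highest mean value, Epas1, a hypoxia-inducible factor of endothelium, fell (-0.74, SE 0.25; limma adjusted p = 0.0331), while the claudin gene Cldn5 (0.20; limma adjusted p = 0.344) and the adrenomedullin co-receptor gene Ramp2 (-0.35; limma adjusted p = 0.259) did not pass. The 4 that rose, named after their values were seen, were Bcl6b (1.03), Rhoj (0.84), Grrp1 (0.79) and Gimap6 (0.75).

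Of 18 further capillary genes, 12 fell and 1 rose. Cd36, the fatty acid transporter, fell (-1.52, SE 0.25; limma adjusted p = 0.00134) with values of 8.64, 8.64 and 8.08 in saline and 6.49, 7.05 and 7.28 in LPS. Ly6c1, a surface antigen of capillary cells, rose (1.64, SE 0.24; limma adjusted p = 0.000849), and Hilpda did not pass (0.38). Of 13 further arterial genes, 10 fell and 0 rose, in the same direction as Gja4, Gja5 and Bmx. The ephrin gene Efnb2 fell by 1.07 (SE 0.17; limma adjusted p = 0.00108) and Nrp1 by 0.80 (SE 0.26; limma adjusted p = 0.0291), while Cxcl12 did not pass (-0.31). The background for these counts is 24.3% lower and 25.7% higher.

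Of 10 venous genes, 3 rose and 4 fell. Bst1, an ectoenzyme also found on myeloid cells, rose (1.59, SE 0.21), as did Ackr1 (4.24), the chemokine-binding receptor of venules, and Selp (3.90), the P-selectin gene. Ephb4 fell (-0.68, SE 0.19; limma adjusted p = 0.0148), with Slc6a2 (-2.79), Prss23 (-0.93) and Nrp2 (-0.67), and Nr2f2, the venous fate factor, did not pass (-0.04). Ackr1, Selp, Slc6a2, Prss23 and Nrp2 are named after their values were seen. Of 8 lymphatic genes tested, 0 rose and 3 fell, the chemokine gene Ccl21a (-1.68, SE 0.22), Flt4 (-1.06), which encodes VEGFR3, and Sema3d (-0.86), the last pair named after their values were seen. Pdpn, also an epithelial gene, differed by 0.60 (SE 0.25; limma adjusted p = 0.0719) and the connexin gene Gja1 by 0.09 (limma adjusted p = 0.630), neither past the threshold.

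Of 17 genes for factors that work with the SOXF, ETS and SCL proteins, 5 rose and 5 fell. Klf2, a flow-responsive factor that activates S1pr1, rose from 6.32, 5.83 and 6.81 to 8.04, 8.23 and 7.45 (difference 1.59, SE 0.28; limma adjusted p = 0.00187). Ets2 rose by 0.51 (SE 0.18; limma adjusted p = 0.0406), and Klf4 did not pass (0.70, SE 0.33). The others called, named after their values were seen, were Tcf4 (0.89), Runx1 (0.87) and Gata1 (0.69), higher, and Mef2c (-1.64), Foxf2 (-1.31), Lmo2 (-1.03), Gata3 (-0.84) and Elk3 (-0.73), lower. Lmo2 is the bridging partner of Tal1 and Gata2 in the SCL complex, and neither of those genes passed.

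**Figure D4:**
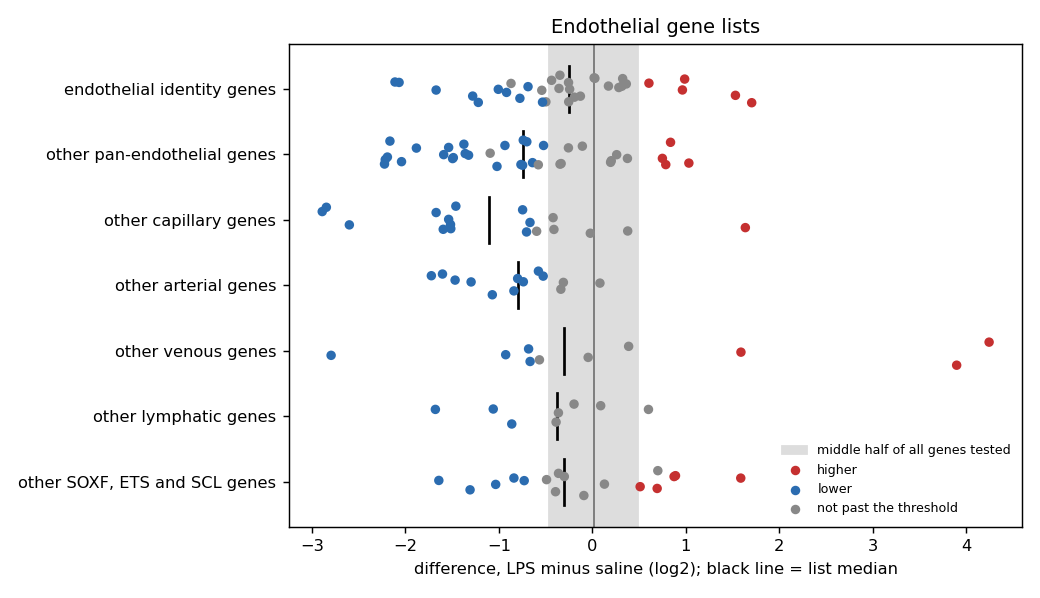
Differences between LPS and saline (log2) for the 33 endothelial identity genes and 6 lists of other endothelial genes; each point is a gene, red if called higher, blue if called lower, grey if not called, black lines are list medians, and the shaded band is the interquartile range of all 13116 genes tested (-0.46 to 0.49). The medians of the pan-endothelial (-0.75), capillary (-1.10) and arterial (-0.80) lists lie below the band. Those of the venous (-0.31), lymphatic (-0.38) and SOXF, ETS and SCL (-0.30) lists lie within it, as does that of the identity genes (-0.25).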

How the data were processed

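RNA sequencing of lung tissue gave 6 tables, 1 per library, each with a gene symbol and a value. Per the labels' protocols, Trizol was used for extraction and a directional kit for the libraries. TopHat and mm10 are named in the submitters' processing notes. How reads were counted, annotated and scaled is not stated there. The authors deposited log2 values, a unit taken from their range (0 to 17.3, not whole). Whether they are scaled by gene length is not stated. The sums over marker lists, the shares of those sums and the choice of genes by highest mean depend on that scaling. Apart from these, levels are not compared between genes. Depth is unknown, so no counting interval is given. Each saline library has 3869 exact zeros among 23183 genes, and LPS 1 and LPS 2 have 6097 and 6223. LPS 3 has 5117 among the 18699 genes it lists. This difference in low values follows the groups. The sums of the values before the log, over genes with 6 values, also followed the groups. They were 467483 to 552368 in saline and 854330 to 885427 in LPS. Equal sums remove this difference, which cannot be separated from treatment.

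The fit was limma 3.58.1 in R 4.3.3 with a variance trend, on the deposited values, for 13116 genes with a value of at least 1 before the log in at least 3 libraries; missing LPS 3 values stayed missing. P-values were Benjamini-Hochberg adjusted over all genes (threshold 0.05). Folds on this scale understate changes of low genes. In simulated data with 200 changed genes, the fit called 55.8% of 2-fold and 93.6% of 4-fold changes, and 5.11% of calls were false. Many more genes were called in the real data, so these rates may differ there. A gene that did not pass may still have changed. Ratios between genes were tested with exact two-sided permutation (scipy 1.17.1). Separate animals are not stated for the libraries. The p-values therefore reflect only how far these samples spread, which may be technical. No label says that same-numbered libraries pair, so no pairing was used. The members and lists were chosen with earlier results of these data known. All 34 members are named; of each other list, the 3 tested genes with the highest mean (all tested where fewer; 1 is not reported here), and genes said to be named after their values were seen. Coordinates are from GENCODE M21 (mm10).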

Additional observations from a re-analysis of the deposited data

How the results depend on the processing

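Each of the 33 genes was refitted under up to 19 alternatives, 619 values in all. Of these, 552 kept their direction and their side of the threshold and 20 changed sign. Counting those that changed sign, 27 lost the call and 27 gained one. Not every alternative could move a difference. The threshold of 0.01 used the same fit, and leaving out LPS 3 took no value from the 6 genes that lack one there. Of the 15 called genes, 9 (Erg, Tmem100, Plvap, Lyve1, S1pr1, Gja4, Gja5, Arhgef15 and Bmx) kept call and direction under every alternative that could be fitted for them. For Tmem100 these include fits with 1 LPS value, and its LPS values differ by 1.57. The members called numbered 15, and 29 with equal sums (87.9%, against 69.7% of all genes), 27 of them lower and 2 higher. Quantile normalization called 17 (51.5%, against 41.8%), 14 lower and 3 higher. Over all genes 6565 were called, and 4037 at a threshold of 0.01. Other endothelial genes called higher numbered 13, and 5 with equal sums, and those called lower 55, and 79 with equal sums.

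Signs changed for genes not called on the deposited values, and for Cd34. With equal sums Esam became -0.47, Fli1 -0.44, Egfl7 -0.44, Cd34 -0.19, Cd93 -0.51, Tal1 -0.61, Lyl1 -0.55 and Foxf1 -0.77, and all of these but Egfl7 and Cd34 were then called lower. With quantile normalization Esam became -0.25, Egfl7 -0.32, Cd93 -0.28 and Foxf1 -0.49. With saline 1 and 3 against LPS 1 and 2, Car4 became 0.02, Tal1 -0.03 and Foxf1 -0.06. Leaving out 1 library at a time gave Sox17 -1.85 to 0.11, Tal1 -0.06 to 0.12 and Foxf1 -0.18 to 0.22. With a pseudocount of 5 the Gja5 to Gja4 difference was -0.06, and with 0.1 that of Lyve1 to Prox1 was 3.31. The Sox17 to Sox18 ratio became 0.10 with a pseudocount of 5 and 0.76 without LPS 1, and fell to -1.12 without LPS 2. Leaving out 1 library gave -0.14 to 0.37 for Mmrn1 to Mmrn2 and -0.07 to 0.39 for Car4 to Gpihbp1. The equal-sums values include the shift of -0.70 in the median of all genes. Less that shift Esam was 0.23, Fli1 0.25, Egfl7 0.26, Cd34 0.51, Cd93 0.18, Tal1 0.08, Lyl1 0.14 and Foxf1 -0.08. The cause of the other changes was not tested.

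The labels share replicate numbers, but none says that same-numbered libraries pair. The correlation of same-numbered deviations from the group means was -0.234, -0.0776 and -0.252. Deviations from a mean of 3 libraries are tied to each other, so these values cannot decide whether the libraries pair or share a batch. With a replicate block 12 of 33 members were called, 4 higher and 8 lower, where 5417 of all 13116 genes were called. Sox18, Cd34 and Stab1 lost the call. Depth is unknown, which limits the genes with low values, Prox1, Bmx and Tal1. For these genes the differing low range of saline and LPS values cannot be separated from treatment.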
